A study of Mus musculus with 15 samples.

Results

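The constitutive proteasome subunits are the 36 mouse genes whose symbols match Psma, Psmb, Psmc or Psmd followed by a number, without the interferon-inducible Psmb8, Psmb9 and Psmb10. They were chosen by symbol alone, each was read through 1 probe set (the one with the highest mean over the 15 arrays among those naming that gene alone), and they are 36 of the 18193 genes with such a probe set. All 36 passed the filter on low values, which asked for a level over the 40th percentile of the array in 3 or more arrays, as did 13703 genes in all. By position in the particle they fall into 8 genes of the alpha ring, 8 of the beta ring, 6 ATPases of the base, and 14 non-ATPase subunits and base assembly chaperones of the regulatory particle.

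The macrophages were cultured from mouse bone marrow for 7 days with M-CSF, which makes marrow progenitors into macrophages, and total RNA was read on one-colour arrays, 3 biological replicates per group. M0 cells had M-CSF alone, M1 cells were given E coli lipopolysaccharide (LPS) and interferon gamma (written INF-g in the labels), and M2 cells were given IL4 and IL13. The remaining groups were M2 cells that also received nutlin-3a, a small molecule that blocks the binding of MDM2 to p53, or 10058F4, a MYC inhibitor that hinders its pairing with MAX. The sources used here give no strain, age or sex of the mice, and no dose, exposure time or vehicle of an agent. The titles call the 3 replicates biological, but the sources do not state whether they came from separate mice. A p-value therefore reflects the spread among these arrays alone, which may not include the spread between mice. Macrophage markers were present as labelled, with 8 of 8 listed genes (among them Adgre1, Csf1r and Cd68) above the 40th percentile on every array of every group. The 6 M1 markers averaged 10.5 to 10.8 on the log2 scale on the M1 arrays against 5.04 to 5.09 on the M0 arrays. The 6 M2 markers averaged 9.70 to 9.84 on the M2 arrays, 5.54 to 5.64 on the M0 arrays and 5.06 to 5.91 on the M1 arrays. In M1, Arg1 had log2 expression of 5.35, 8.76 and 5.30, and Mrc1 of 3.98, 5.60 and 4.63. M1 replicate 2 was thus the highest for Arg1 and Mrc1, but the lowest for Retnla and Pdcd1lg2 and in between for Chil3 and Ccl24.

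The proteasome is the barrel-shaped protease that degrades proteins tagged with ubiquitin and supplies most peptides that MHC class I molecules present. Its core particle is made of outer alpha rings, which gate the entry, and inner beta rings, in which Psmb5, Psmb6 and Psmb7 carry the chymotrypsin-like, caspase-like and trypsin-like active sites. The regulatory particle that caps it recognises ubiquitin, removes it and unfolds the substrate with a ring of 6 ATPases. In cells exposed to interferon gamma, Psmb8, Psmb9 and Psmb10 are built into new core particles in place of Psmb5, Psmb6 and Psmb7, which gives the immunoproteasome.

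Promoters are shown for the catalytic subunits Psmb5 and Psmb6, which hold the antioxidant response element core bound by NRF1 and NRF2, for Psmd10, the member with the highest count of CCAAT boxes, and for Psmd11, which had neither motif and was among the highest rises in M1. RefSeq (GRCm38.p6) gave windows from 250 bases before to 50 bases after the start for 29 of the 36 members, 31 windows in all. Psma8, Psmb1, Psmb2, Psmb7, Psmc3, Psmd3 and Psmd7 had no entry. The 250 bases before each start are printed 5′ to 3′ on the gene's strand, with motif matches on either strand in capitals (ATTGG is CCAAT on the other strand).
Psmb5 (minus strand, chr14:54617996-54618245): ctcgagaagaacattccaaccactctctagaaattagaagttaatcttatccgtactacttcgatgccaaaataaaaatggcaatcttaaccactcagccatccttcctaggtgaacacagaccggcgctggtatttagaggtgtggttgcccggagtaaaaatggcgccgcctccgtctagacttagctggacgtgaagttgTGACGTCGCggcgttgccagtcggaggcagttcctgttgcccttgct
Psmb6 (plus strand, chr11:70525107-70525356): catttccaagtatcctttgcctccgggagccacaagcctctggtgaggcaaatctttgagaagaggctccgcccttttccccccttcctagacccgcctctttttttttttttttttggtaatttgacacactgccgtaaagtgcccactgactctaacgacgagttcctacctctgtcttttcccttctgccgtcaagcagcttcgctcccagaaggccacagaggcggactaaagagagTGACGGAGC
Psmd10 (minus strand, chrX:140956712-140956961): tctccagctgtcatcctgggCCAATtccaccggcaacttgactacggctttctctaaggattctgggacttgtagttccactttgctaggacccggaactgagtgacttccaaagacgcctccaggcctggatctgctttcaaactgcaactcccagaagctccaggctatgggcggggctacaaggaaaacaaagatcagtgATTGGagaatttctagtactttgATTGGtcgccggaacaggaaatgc
Psmd11 (plus strand, chr11:80428365-80428614): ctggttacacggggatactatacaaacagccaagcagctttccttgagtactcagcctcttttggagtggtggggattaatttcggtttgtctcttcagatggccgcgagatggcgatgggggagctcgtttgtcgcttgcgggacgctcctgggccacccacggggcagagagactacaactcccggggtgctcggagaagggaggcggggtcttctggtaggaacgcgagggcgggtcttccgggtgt

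The Psmb5 promoter held TGACGTCGC, which begins 47 bases before the start, and the Psmb6 promoter held TGACGGAGC, which begins 9 bases before it. Over both strands of the 300-base windows, the antioxidant response element core TGACNNNGC lay in 5 of 31 member windows (16.1%; Psmb5, Psmb6, Psmc6, Psmd9 and Psmd12) and in 12.39% of 32851 windows of all genes. CCAAT lay in 12 of 31 member windows (38.7%) and in 37.41% of all windows, and Psmd10 had 3 matches. The E-box CACGTG, the kind of site that MYC and MAX bind, lay in 2 of 31 member windows (6.5%; Psma4 and Psmd9) and in 7.15% of all windows. The interferon-gamma activated site core TTCNNNGAA lay in 1 member window (3.2%, Psmd2) and in 8.3% of all windows. In Psmd9, which had both TGACNNNGC and CACGTG, the matches begin 31 and 51 bases before the start and do not overlap. Members with and without these letters were among the rises in M1 described next, such as Psmb5 and Psmd11. Psmd11 was picked for rising without the antioxidant response element core or CCAAT, and most members rose. These examples therefore say nothing about a part of the motifs, which was not tested. A match describes letters, not binding.

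M1 macrophages had more RNA of most constitutive subunits than M0 macrophages. In limma's fit over all genes, 27 of 36 members (75%) rose, where 33.6% of all tested genes were called higher, and 3 of 36 (8.33%) fell, where 39.1% were called lower. A gene was called at a Benjamini-Hochberg adjusted p under 0.05 over the 13703 genes. The median member was 0.40 higher on the log2 scale, 1.32-fold, against a median of -0.005 over all tested genes, and the called rises ran from 1.15-fold (Psmd12) to 1.88-fold (Psmb7). The M1 arrays lay wholly above the M0 arrays for 27 members (75%, against 32.9% of all tested genes) and wholly below them for 3 (8.33%, against 38.4%). On the probe sets used, no member changed as much as 2-fold on the deposited scale. Another probe set of Psma5 did, at a log2 difference of 1.27 (limma adjusted p = 5.84e-10). In bulk RNA, fewer cells of a type and less RNA per cell cannot be told apart. As a measure of RNA quality, the control probe sets at the 3′ end of beta-actin exceeded those at its 5′ end by 0.132 to 0.221 on the M1 arrays and 0.29 to 0.395 on the M0 arrays (log2). For Gapdh the same difference went the other way, -0.193 to -0.124 on the M1 arrays and -0.286 to -0.256 on the M0 arrays. The part of RNA quality in the result was not tested. Dendritic cell markers averaged 5.24 to 5.66 on the M1 arrays with 5 of 5 above the 40th percentile, and 4.43 to 4.69 on the M0 arrays with 3 of 5. T and NK cell markers averaged 4.81 to 4.91 and 4.41 to 4.52, with 4 and 3 of the 5 measured above it. B cell markers averaged 4.60 to 4.76 on the M1 arrays and 4.43 to 4.58 on the M0 arrays. For neutrophil markers the averages were 5.47 to 5.55 and 5.25 to 5.44, and stromal markers overlapped. The 40th percentile itself was 4.466 to 4.516 on the M1 arrays and 4.336 to 4.385 on the M0 arrays. The part of these lists was not tested.

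**Figure D1:**
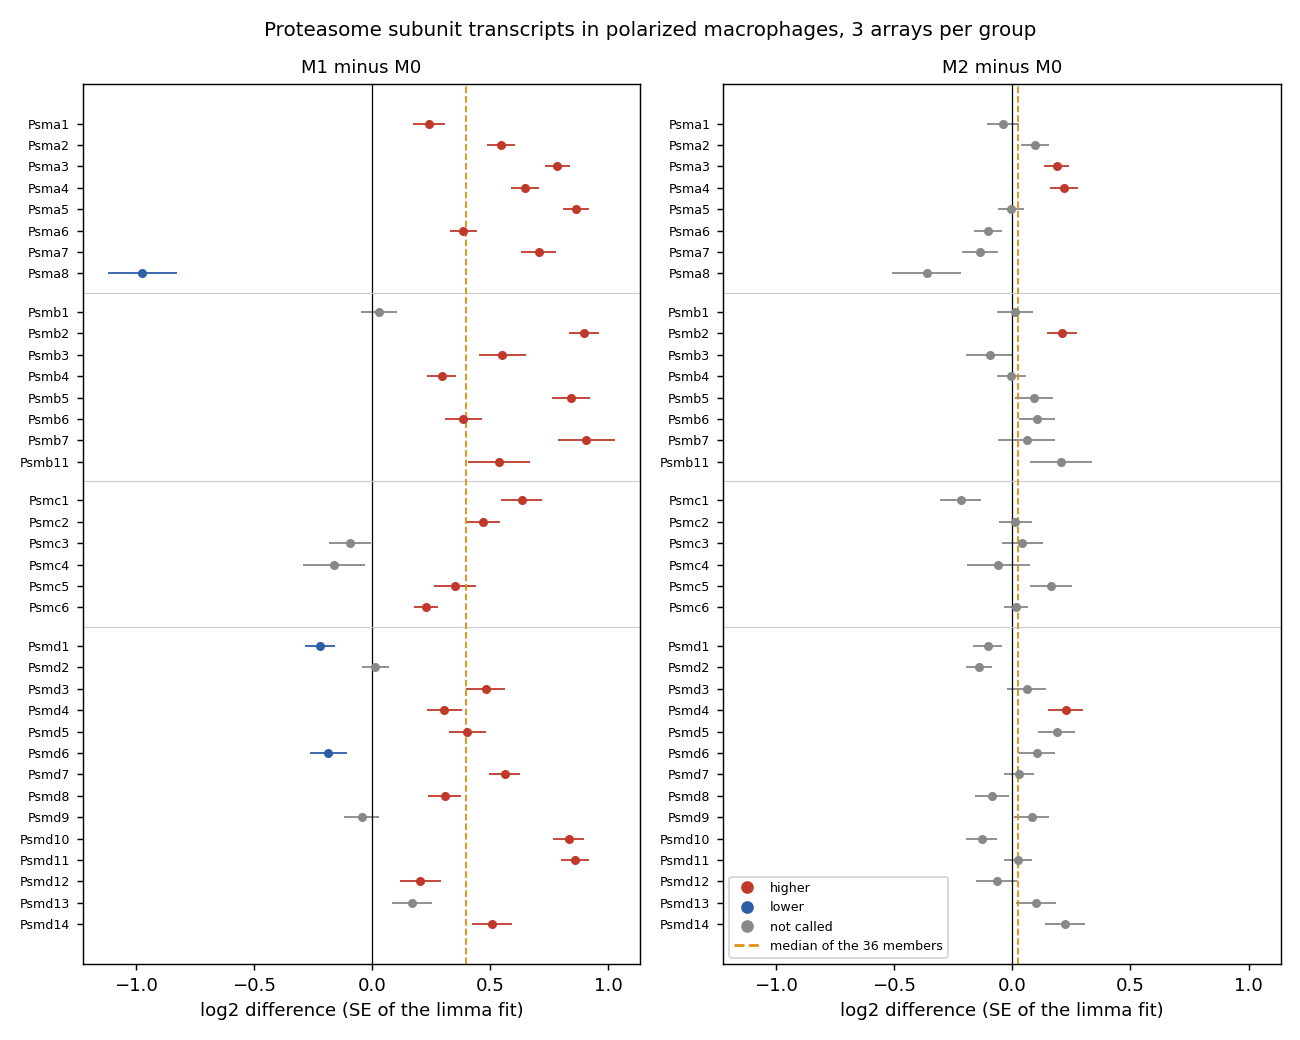
Log2 differences of the 36 members (points, limma standard error as bars) for M1 minus M0 on the left and M2 minus M0 on the right, 3 arrays per group, with members ordered by alpha ring, beta ring, base ATPases and non-ATPase subunits. Most left-hand points lie right of 0 around the median of 0.40 (dashed line), whereas the right-hand points lie around a median of 0.03.

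The core particle showed the higher medians. Of all tested genes, 33.6% were called higher and 39.1% lower. Of the 8 alpha ring genes 7 rose (87.5%) and 1 fell (12.5%), with a median log2 difference of 0.60. Of the 8 beta ring genes 7 rose and 0 fell, with a median of 0.54. Among the 6 base ATPases, the motor that unfolds substrates, 4 rose and 0 fell at a median of 0.29. Among the 14 non-ATPase genes 9 rose and 2 fell at a median of 0.31. The difference between core and regulatory particle was not tested.

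Each of the 3 catalytic subunits rose. Psmb7 had log2 expression of 8.18, 8.57 and 8.56 in M0 and 9.41, 9.13 and 9.50 in M1. All M1 arrays lay above all M0 arrays, and the log2 difference was 0.91 (SE 0.121; limma adjusted p = 1.11e-05). Psmb5, the target of bortezomib and related inhibitors, had log2 expression of 10.22, 10.42 and 10.27 in M0 and 11.09, 11.32 and 11.04 in M1. The groups did not overlap, and its log2 difference was 0.84 (SE 0.0804; limma adjusted p = 3.37e-07). Psmb6 had log2 expression of 10.96, 11.08 and 10.96 in M0 and 11.27, 11.56 and 11.33 in M1. Its groups did not overlap either, at a smaller log2 difference of 0.39 (SE 0.0777; limma adjusted p = 4.84e-04).

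Among the other core subunits, Psmb2, a non-catalytic subunit of the beta ring, had log2 expression of 10.19, 10.39 and 10.24 in M0 and 11.22, 11.10 and 11.19 in M1. The M1 arrays lay above every other array of the study for this gene, and the log2 difference from M0 was 0.90 (SE 0.0634; limma adjusted p = 1.28e-08). Psma5, of the alpha ring, had log2 expression of 10.92, 10.91 and 10.91 in M0 and 11.78, 11.71 and 11.85 in M1. It had the smallest adjusted p of the 36 members, at a log2 difference of 0.86 (SE 0.0558; limma adjusted p = 4.82e-09). On the probe set used, its 12 arrays outside M1 spanned only 10.86 to 10.97. Psma3, Psma7 and Psma4 rose by 0.78, 0.70 and 0.65 on the log2 scale.

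In the regulatory particle, Psmd11, a lid subunit, and Psmd10 (gankyrin), a chaperone of base assembly, rose by 0.86 and 0.83 on the log2 scale, with limma adjusted p = 8.82e-09 and 3.95e-08. Psmd14, the deubiquitinase that cuts ubiquitin off the substrate, rose by 0.51, and Psmd4, a ubiquitin receptor, by 0.31. Psmc1 had the largest log2 rise among the ATPases, 0.63. Psmd12 was called at a log2 difference of 0.20 (limma adjusted p = 0.045) although its M0 and M1 arrays overlapped, and this call was lost in 13 of 23 alternative settings. The other rises, Psma1, Psma2, Psma6, Psmb3, Psmb4, Psmb11, Psmc2, Psmc5, Psmc6, Psmd3, Psmd5, Psmd7 and Psmd8, had log2 differences from 0.23 (Psmc6) to 0.56 (Psmd7). Psmb11, the beta ring subunit of thymic epithelium, lay near the 40th percentile throughout, at log2 expression of 4.33 to 5.37.

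The members that fell were Psma8, Psmd1 and Psmd6. Psma8, the alpha ring subunit of the germ-cell proteasome, had log2 expression of 5.16, 5.49 and 5.01 in M0 and 4.22, 4.39 and 4.14 in M1. The M1 values lay below the 40th percentile of their arrays, 4.47 to 4.52, so the log2 difference of -0.97 (SE 0.1457; limma adjusted p = 3.53e-05) ends at a level not shown to be above background. Psmd1, the scaffold of the base on which a ubiquitin receptor docks, had log2 expression of 10.71, 10.84 and 10.77 in M0 and 10.57, 10.59 and 10.50 in M1. Its M1 arrays lay below all 12 others, and the log2 difference was -0.22 (SE 0.0627; limma adjusted p = 6.31e-03). Psmd6, a lid subunit, had log2 expression of 10.48, 10.60 and 10.51 in M0 and 10.48, 10.18 and 10.37 in M1, groups that almost touch. Its log2 difference of -0.18 (SE 0.0772; limma adjusted p = 0.0442) lost its call in 15 of 23 alternative settings. In 1 of these, with arrays centred on the median of the tested genes, it turned to 0.14, as Psmd1 turned to 0.11. Psmb1, Psmc3, Psmc4, Psmd2, Psmd9 and Psmd13 were not called, with log2 differences from -0.16 (Psmc4) to 0.17 (Psmd13).

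Several members carry more than 1 probe set, and in M1 against M0 these disagreed in sign among called probe sets for Psmc6 and Psmd13. For Psmc6 the probe set used rose by 0.23 on the log2 scale, whereas its other probe sets gave -0.37 and -0.74. For Psmd13 the probe set used gave 0.17 without a call, and the others gave 0.19, -0.68 and -0.77, all called. Psmc4, not called on the probe set used, was 0.65 higher on its other one, and Psmb4 was 0.30 higher on the one used and -0.03, without a call, on its other. For these genes the direction or the call depended on the probe set. For Psma5 the size did, at 0.86 on the probe set used and 1.27 on another. In all, 17 members had several tested probe sets, and in the other 5 comparisons no member's probe sets were called in opposite directions.

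Few members changed in M2. In limma's fit 4 of 36 members (11.1%) rose, where 12.7% of all tested genes were called higher, and 0 fell, where 18.4% were called lower. The median log2 difference was 0.03, and 9 members had an unadjusted p under 0.05 (25%, against 41% of all tested genes). Calls on other probe sets went both ways. Those of Psmc6 (-0.58 and -0.87) and Psmb1 (-0.33) were called lower, and 1 of Psma5 (0.19) higher. This comparison shares the M0 arrays with the preceding one.

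Psmd4 had log2 expression of 10.14, 10.22 and 10.07 in M0 and 10.37, 10.39 and 10.35 in M2. Its M0 arrays lay below all 12 others, and the log2 difference was 0.23 (SE 0.0747; limma adjusted p = 0.0323). Psma4, of the alpha ring, had log2 expression of 11.24, 11.32 and 11.28 in M0 and 11.47, 11.51 and 11.51 in M2. The groups did not overlap, and the log2 difference was 0.22 (SE 0.0593; limma adjusted p = 0.0115). Psmb2 stood at log2 expression of 10.49, 10.49 and 10.47 in M2, above each M0 array, with a log2 difference of 0.21 (SE 0.0634; limma adjusted p = 0.0217). Psma3 was the remaining rise, at a log2 difference of 0.19 (SE 0.0533; limma adjusted p = 0.0154). The catalytic subunits were not called, with log2 differences of 0.09 for Psmb5, 0.11 for Psmb6 and 0.06 for Psmb7, whose 95% interval ran from -0.20 to 0.32.

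The count of M2 rises rested on few arrays. Without M0 replicate 1 it was 1, and without M0 replicate 3 or M2 replicate 2 it was 2. Psmd4 lost its call in 5 of 23 alternative settings and Psmb2 in 4. Without M1 replicate 2 the falls went from 0 to 3, and without M0 replicate 3 or 10058F4 replicate 2 to 1. The M1 and 10058F4 arrays act here only through the shared estimate of the spread, and the shares of all tested genes are not given. With the replicate block, Psmd5 (adjusted p = 0.0486 by limma) and Psmd14 (0.0376) were also called higher and Psma8 (0.00607) lower.

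Set against M2, M1 macrophages again had the higher levels, and these values share their M1 and M2 arrays with the comparisons with M0. In limma's fit 26 of 36 members (72.2%) were higher in M1, where 28.1% of all tested genes were called higher, and 2 of 36 (5.56%) were lower, where 36.5% were called lower. The median log2 difference was 0.32. Psmd10 had log2 expression of 10.04, 9.90 and 9.99 in M1 and 8.97, 9.08 and 8.99 in M2. It had the largest log2 difference of the 36 members, 0.96 (SE 0.0651; limma adjusted p = 7.95e-09), and no overlap. Psma5 followed at a log2 difference of 0.87 (1.07 on another probe set), and its levels in M2 were 10.88, 10.92 and 10.92. Psmc1, an ATPase, had log2 expression of 10.37, 10.04 and 10.27 in M1 and 9.26, 9.48 and 9.38 in M2. Its M2 arrays lay below all 12 others, and the log2 difference was 0.85 (SE 0.0864; limma adjusted p = 6.69e-07). Psmb5, Psmb6 and Psmb7 were higher in M1 by 0.75, 0.28 and 0.85 on the log2 scale, all called. Psma8 (-0.61) and Psmd6 (-0.29) were the lower members. Psmd1, with a log2 difference of -0.11 (limma adjusted p = 0.123), was not called.

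Across all 15 arrays, limma's moderated F over the 5 groups called 31 of 36 members (86.1%), against 78.1% of all tested genes. M1 had the highest group mean for 30 of 36 members (83.3%), against 39.1% of all tested genes. For 23 members (63.9%) all 3 M1 arrays lay above all 12 others, as they did for 19.4% of all tested genes. The median over the 36 members was 10.76, 10.58 and 10.66 on the M1 arrays and did not exceed 10.47 on any other array. Psmd10 had the largest range of group means, 1.09 on the log2 scale, between 9.98 in M1 and 8.88 with 10058F4, where its arrays read 8.93, 8.92 and 8.81. Psmb7 followed with a range of 1.05. Psmb1, a non-catalytic beta ring subunit, had the smallest range, 0.10, with group means from 10.67 to 10.77. Psmb1, Psmc3, Psmc4 and Psmd9 were called in none of the 6 comparisons, 11.1% of the members against 16.5% of all tested genes.

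**Figure D2:**
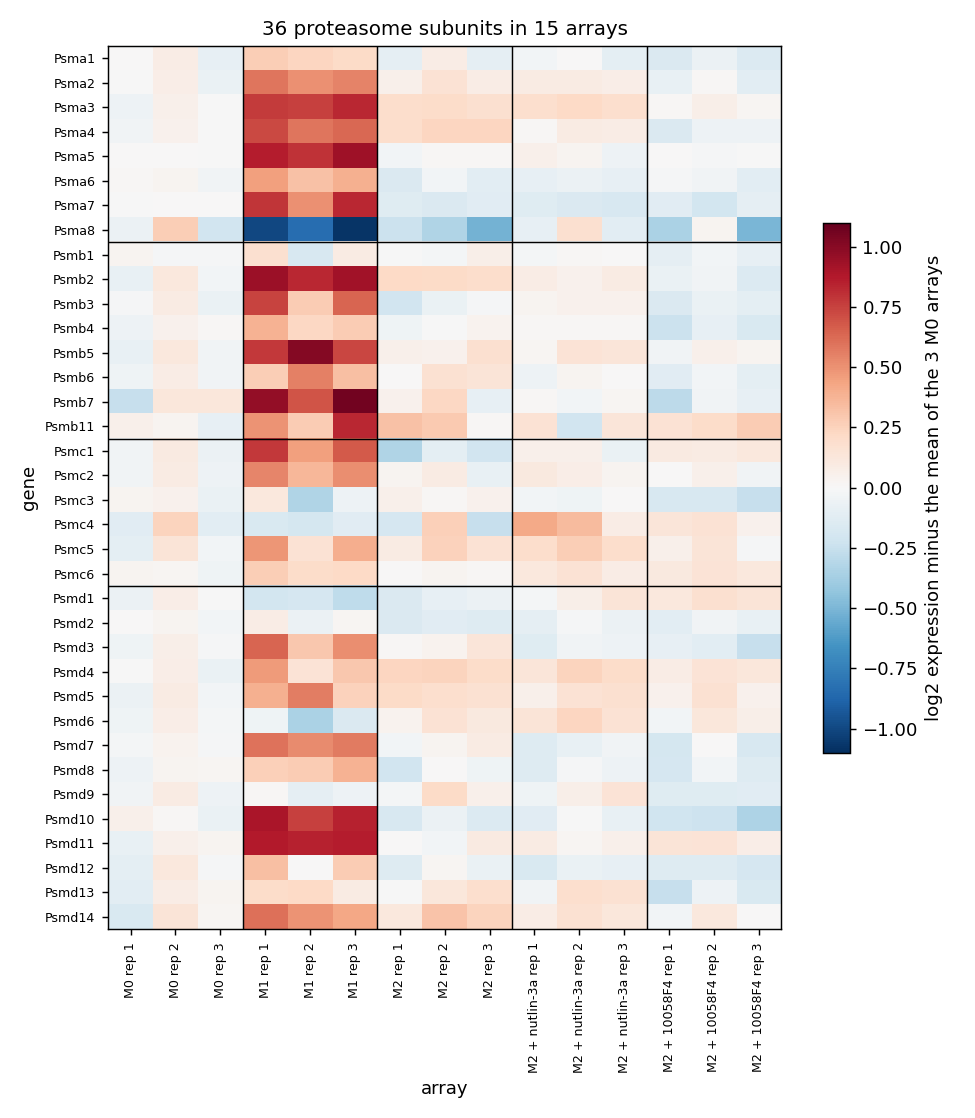
Log2 expression of the 36 members on each of the 15 arrays, drawn as the difference from the member's mean over the 3 M0 arrays (colour), with members in rows by position in the particle and arrays in columns by group. The 3 M1 columns are the highest for 23 members and the lowest for Psma8, Psmd1 and Psmd6, although the M1 and M0 arrays of Psmd6 almost touch.

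No member passed the test with nutlin-3a on the probe set used. In limma's fit 0 of 36 were called in either direction, where 9.56% of all tested genes were called higher and 5.85% lower. At an unadjusted p under 0.05 there were 5 of 36 (13.9%), against 29% of all tested genes, and the smallest adjusted p was 0.0898, for Psmd1. The median log2 difference was 0.005. The mean of all probe sets called Psmb4 and Psmc6 higher and 0 members lower. On single other probe sets these were 0.42 and 0.38 higher (limma adjusted p = 0.0245 and 6.86e-03). Another probe set of Psma1, with a mean of only 4.62, was 0.43 higher (0.0495). The 95% intervals of the 36 differences ran from -0.46 (Psmb11) to 0.67 (Psma8), each interval being for its own member. Psmb5 had log2 expression of 10.33, 10.45 and 10.44 with nutlin-3a and 10.36, 10.35 and 10.48 in M2. These groups overlapped, as did those of Psmb6 and Psmb7, whose log2 differences were -0.12 and -0.06. With the replicate block 2 members were called higher by limma, Psma8 (adjusted p = 0.0136) and Psmc4 (0.0464), and without M1 replicate 2 or M2 replicate 2 1 member was. Shares of all tested genes are not given for these counts or for the mean of all probe sets, so they are not read as a result about the members.

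10058F4 gave small differences in both directions, below 0 for 26 of 36 members and above 0 for 10. Of the 13703 tested genes, 6861 were below 0 and 6842 above. In limma's fit 2 of 36 members (5.56%) rose, where 10.6% of all tested genes were called higher, and 3 of 36 (8.33%) fell, where 10.2% were called lower. An unadjusted limma p under 0.05 was found for 14 of 36 members (38.9%, against 32.3% of all tested genes). The median log2 difference was -0.09 against 0 over all tested genes. The groups did not overlap with 10058F4 lower for 13 of 36 members (36.1%), against 22.2% of all tested genes. The 3′ to 5′ difference of beta-actin was 0.468 to 0.516 with 10058F4 and 0.359 to 0.416 in M2. That of Gapdh overlapped, at -0.28 to -0.261 and -0.309 to -0.248. Their part in these small differences was not tested. Calls on other probe sets also went both ways, with Psma5 lower (-0.22) and Psmb4 (0.35) and Psma1 (0.49) higher. This comparison and that of nutlin-3a share the M2 arrays.

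Psma4 had log2 expression of 11.12, 11.22 and 11.22 with 10058F4 and 11.47, 11.51 and 11.51 in M2. The 10058F4 arrays lay below all 12 others, and the log2 difference was -0.31 (SE 0.0593; limma adjusted p = 1.93e-03). Psmb2 had log2 expression of 10.20, 10.23 and 10.12 with 10058F4, below the M2 arrays and around the M0 arrays, and its log2 difference was -0.30 (SE 0.0634; limma adjusted p = 3.67e-03). Psma4 and Psmb2 were also among the rises of M2 against M0, which shares the M2 arrays. Psmd13, a lid subunit, had log2 expression of 8.68, 8.88 and 8.76 with 10058F4 and 8.93, 9.05 and 9.11 in M2. Its log2 difference of -0.26 (SE 0.0845; limma adjusted p = 0.0434) lost its call in 9 of 23 alternative settings.

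Psmc1 was higher with 10058F4, at log2 expression of 9.69, 9.68 and 9.71. The groups did not overlap, and the log2 difference was 0.32 (SE 0.0864; limma adjusted p = 0.017). Psmd1 had log2 expression of 10.89, 10.95 and 10.91 with 10058F4 and 10.61, 10.68 and 10.71 in M2, a log2 difference of 0.25 (SE 0.0627; limma adjusted p = 0.0112). The catalytic subunits Psmb5, Psmb6 and Psmb7 had log2 differences of -0.08, -0.19 and -0.20 and were not called. Psmb6 had log2 expression of 10.87, 10.97 and 10.89 with 10058F4 and 11.01, 11.17 and 11.14 in M2, without overlap, and was called lower with the replicate block (limma adjusted p = 0.0317).

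The counts for 10058F4 moved with single arrays and with scaling. Without M1 replicate 2 the falls went from 3 to 9. That array is not part of this comparison and acts on it only through the shared estimate of the spread. The share of all tested genes is not given for the counts without an array. Without M2 replicate 1 the rises went from 2 to 0, and without 10058F4 replicate 1 or 3 to 1. Psmc1 lost its call in 4 of 23 alternative settings and Psmd1 in 1. With arrays centred on the median of the tested genes the split was 2 higher and 5 lower (13.9%, against 11.2% of all tested genes lower), and with quantile normalization repeated it was 2 and 7 (19.4%, against 11.4%). Over the 5 groups, 10058F4 had the lowest group mean for 17 of 36 members (47.2%), against 14.7% of all tested genes. All 3 of its arrays lay below all 12 others for Psma4, Psmb4, Psmd9 and Psmd10 (11.1%, against 3.24%).

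**Figure D3:**
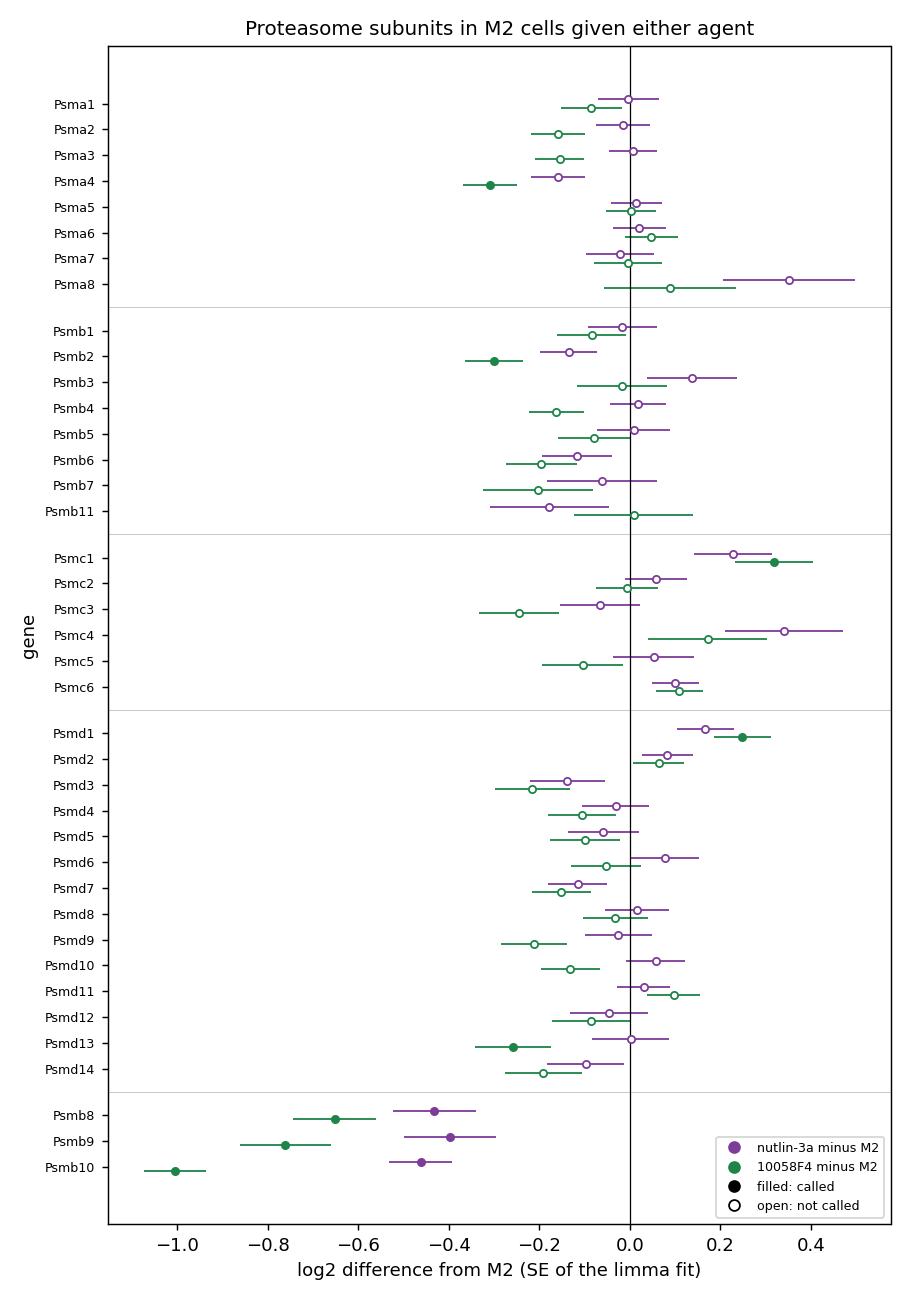
Log2 differences of the 36 members (points, limma standard error as bars) and of Psmb8, Psmb9 and Psmb10 in M2 macrophages with nutlin-3a and with 10058F4, each minus M2 alone, 3 arrays per group, filled where called. Among the 36 members the nutlin-3a points lie around a median of 0.005 and the 10058F4 points around -0.09, with 5 called in the latter.

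No member passed the test between the agents on the probe set used. Another probe set of Psmc6 was 0.34 higher with nutlin-3a (limma adjusted p = 0.022), and the mean of all probe sets called 0 members. In limma's fit 0 of 36 were called in either direction between nutlin-3a and 10058F4, where 4.24% of all tested genes were called higher with nutlin-3a and 2.72% lower. At an unadjusted p under 0.05 there were 8 of 36 (22.2%), against 19.1% of all tested genes, and the smallest adjusted p was 0.0864, for Psmd13. Psmd13 was called higher with nutlin-3a under the replicate block (limma adjusted p = 0.0312), at a log2 difference of 0.26, and without nutlin-3a replicate 1 the count of members called higher was 1. Shares of all tested genes are not given for the block, the left-out array or the mean of all probe sets. The median log2 difference was 0.08, and the groups did not overlap with nutlin-3a higher for 14 of 36 members (38.9%), against 19% of all tested genes. The 95% intervals ran from -0.47 (Psmb11) to 0.58 (Psma8).

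The interferon-inducible subunits give a scale for these values. Psmb8 had log2 expression of 10.92, 10.70 and 10.76 in M0 and 12.56, 12.37 and 12.52 in M1, Psmb9 9.88, 9.56 and 9.72 against 11.79, 11.72 and 11.81, and Psmb10 10.42, 10.27 and 10.36 against 11.89, 11.86 and 11.90. In M1 against M0 all 3 rose, by 1.69, 2.06 and 1.53 on the log2 scale. The subunit each replaces had the smaller log2 difference. The difference of the changes was 0.85 for Psmb8 with Psmb5, 1.67 for Psmb9 with Psmb6 and 0.63 for Psmb10 with Psmb7. The exact two-sided permutation test gave p = 0.1 for each, the smallest that 3 against 3 arrays allow, and 0.15 after Benjamini-Hochberg adjustment over 18 such tests, so none could pass. In M2 against M0, Psmb10 rose by 0.84 while Psmb8 (-0.05) and Psmb9 (-0.07) were not called, as Psmb7 was not. In M1 against M2 Psmb10 and Psmb7 were 0.69 and 0.85 higher in M1, a difference of -0.15 (exact permutation p = 0.4). With nutlin-3a the inducible subunits fell, by 0.43 (Psmb8), 0.40 (Psmb9) and 0.46 (Psmb10), and with 10058F4 by 0.65, 0.76 and 1.00.

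**Figure D4:**
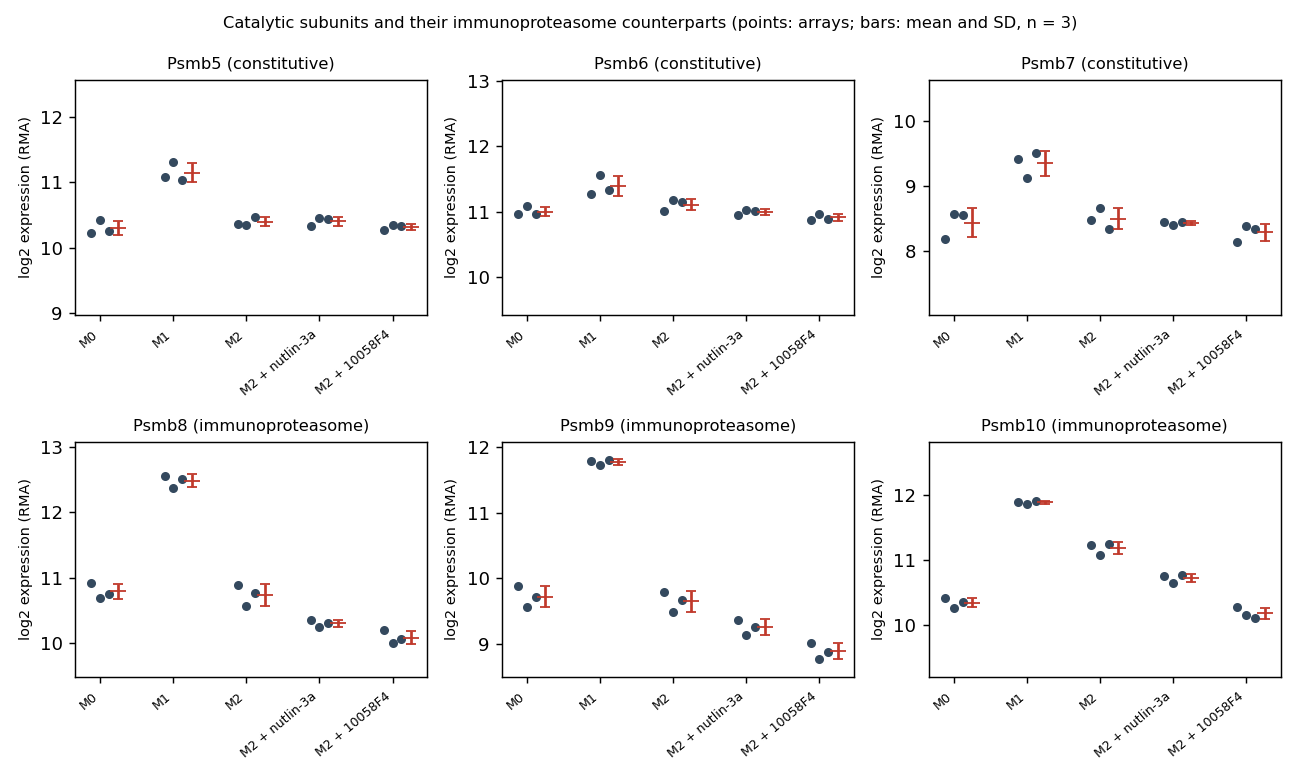
Log2 expression on each of the 15 arrays (points) with the group mean and SD (bars, n = 3) for the inducible subunits Psmb8, Psmb9 and Psmb10 and for Psmb5, Psmb6 and Psmb7, the subunits they replace. Both members of each pair are highest in M1, and the inducible ones are lower with 10058F4 than in M2 while Psmb5 stays between 10.27 and 10.48 in the M2 groups.

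In M1 against M0, genes for proteins that assemble, open or attend the proteasome were called in shares near those of all tested genes. Of 17 measured genes of this list (of 19), limma called 7 higher (41.2%, against 33.6% of all tested genes) and 6 lower (35.3%, against 39.1%) in M1 than in M0. Psme1, an activator subunit that opens the core particle, rose by 1.49 (limma adjusted p = 5.7e-10), and Psme3, the nuclear activator, by 0.69. Pomp, the chaperone of beta ring assembly, rose by 0.66 in M1 and fell by 0.28 with nutlin-3a and by 0.44 with 10058F4. In M1, Psmg1, a chaperone of alpha ring assembly, fell by 1.28, and Usp14, a deubiquitinase bound to the base, by 1.06. With nutlin-3a 4 of the 17 rose (23.5%, against 9.56% of all tested genes) and 1 fell (5.88%, against 5.85%). With 10058F4 5 rose (29.4%, against 10.6%) and 2 fell (11.8%, against 10.2%). In M2 against M0 5 rose (29.4%, against 12.7%) and 1 fell (5.88%, against 18.4%). Of 6 measured genes (of 7) that control subunit transcription, 4 rose (66.7%, against 33.6% of all tested genes) and 2 fell (33.3%, against 39.1%) in M1. Nfe2l1, which encodes the NRF1 factor that raises subunit transcription when proteasome capacity is short, had log2 expression of 9.12, 8.92 and 8.96 in M0 and 9.67, 9.50 and 9.59 in M1. The groups did not overlap, and the log2 difference was 0.59 (SE 0.0821; limma adjusted p = 1.79e-05). Nfe2l2, which encodes NRF2, fell by 0.69 in M1 and by 0.41 with 10058F4, and Nfe2l1 was not called with either agent, at -0.06 with nutlin-3a and -0.24 with 10058F4.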

How the data were processed

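Total RNA of 15 macrophage samples in 5 groups of 3 was read on one-colour arrays. The authors deposited log2 values for each probe set. RMA is the method that the submitters' processing notes name, and its version is not given there. RMA makes the intensity distributions of the arrays alike and can thereby mask a shift of most genes in 1 direction, and 3 arrays per group limit the precision. Of 45101 probe sets, 64 were controls, 34945 named 1 gene, 932 several and 9160 none; 34741 of the probe sets with 1 gene had that gene's ID in RefSeq (GRCm38.p6), which also gave the promoters. Probe sets of different genes were not compared in level.

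Genes over the 40th percentile of an array in 3 or more arrays (13703 of 18193) were fitted with limma 3.58.1 in R 4.3.3 (lmFit, eBayes; a mean per group, with residual degrees of freedom 10 and prior 3.86), with Benjamini-Hochberg adjustment within each comparison over all genes tested. On simulated data for M1 against M0 (13703 genes, 50 changed per size), the fit recovered 28% of 1.25-fold, 76% of 1.5-fold, 92% of 2-fold and 100% of 4-fold changes, with 8 false among 156 calls. Far more genes were called in the real comparison (33.6% higher and 39.1% lower). The adjusted cut-off is stricter when few genes change, so these rates do not describe the real M1 against M0 comparison.

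Sample titles gave groups and replicate numbers. Same-numbered arrays deviated together (correlation of deviations from group means 0.232 to 0.424) in M2 against M0 and in the 3 comparisons of the agents, so the blocked value is given beside results it changes. What a number marks is not stated in the titles.

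Members and gene lists were chosen with earlier results of these data known. Given array by array were the catalytic subunits, up to 3 called rises and falls per comparison, members with the largest and smallest range of group means, and any member called nowhere by name; genes shown beyond these, such as Psmd11, Psmd12 and Nfe2l1, were chosen after their values were seen. Promoter motifs were searched on both strands. Alternatives were 2 other filters, 2 rules for probe sets, 2 ways of centring, repeated quantile normalization, the replicate block and leaving out each array; centring on tested genes and testing each probe set on its own were chosen after seeing the data.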

Additional observations from a re-analysis of the deposited data

How the results depend on the processing

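With arrays centred on the median of their genes, M1 against M0 had 28 members higher (77.8%, against 42% of all tested genes) and 1 lower (against 34.3%). Nutlin-3a against M2 had 1 higher (2.78%, against 11%), and nutlin-3a against 10058F4 had 3 higher (8.33%, against 5.55%). With centring on the tested genes, M1 against M0 had 32 higher (88.9%, against 55.6% of all tested genes) and 1 lower (against 25.6%). M2 against M0 had 9 higher (25%, against 20.4%). M1 against M2 had 30 higher (83.3%, against 50.3%) and 1 lower (against 26.6%). There were 5 lower with 10058F4 (13.9%, against 11.2%) and 1 lower with nutlin-3a (2.78%, against 9.63%). The log2 difference in M1 against M0 became 0.11 for Psmd1 and 0.14 for Psmd6, and that of Psmb5 with nutlin-3a -0.053. These centrings moved the median of all tested genes in M1 against M0 from -0.005 to 0.10 and 0.32. They moved that of the members from 0.40 to 0.50 and 0.72. Centring shifts all genes of an array alike, so the gap of 0.40 between members and all tested genes could not change. Repeated quantile normalization gave 7 lower with 10058F4 (19.4%, against 11.4%) and 2 lower with nutlin-3a (5.56%, against 7.57%). It gave -0.046 for Psmb5 with nutlin-3a. The mean of all probe sets gave 5 lower in M1 against M0, 1 lower in M2 against M0, 1 higher with 10058F4 and 2 higher with nutlin-3a. The stricter filter, which dropped Psma8 and Psmb11, gave 1 lower in M2 against M0, 1 lower in M1 against M2 and 7 lower with 10058F4. The replicate block gave 1 lower in M2 against M0, 2 higher with nutlin-3a and 1 higher for nutlin-3a against 10058F4; in M1 against M0, where the numbers were not shown to pair arrays, it ended the calls of Psmd6 (limma adjusted p = 0.0538) and Psmd12 (0.0564) and added Psmd13 (0.0385). Shares of all tested genes are not given for the filter, probe set and block counts. The cause of these shifts was not tested.

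Leaving out each array in turn gave 26 to 28 higher and 2 to 4 lower in M1 against M0, 23 to 26 and 2 to 3 in M1 against M2, 1 to 5 and 0 to 3 in M2 against M0, 0 to 2 and 2 to 9 with 10058F4, 0 to 1 and 0 to 0 with nutlin-3a, 0 to 1 and 0 to 0 for nutlin-3a against 10058F4, and 28 to 34 over the 5 groups. Shares of all tested genes are not given for these counts. Among values not called, the log2 difference ran from -0.066 to 0.137 for Psmb7 in M2 against M0, from -0.015 to 0.048 for Psmb5 with nutlin-3a and from -0.137 to 0.021 for Psmb7 with nutlin-3a. Signal over background was not measured in the values used here, so low levels such as those of Psma8 and Psmb11 have only the percentile as a guide.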

Other observations

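Among genes that supply and deliver ubiquitylated substrates, 10 of 16 listed had a probe set, and limma called 3 higher (30%, against 33.6% of all tested genes) and 4 lower (40%, against 39.1%) in M1 than in M0, shares near those of all tested genes. Rad23b, a shuttle that carries tagged proteins to the proteasome, rose by 0.68 on the log2 scale, and Nploc4, a partner of the Vcp unfoldase, by 0.56. Ubqln2, another shuttle, fell by 1.54 on the log2 scale (limma adjusted p = 2.0e-09), whereas Vcp fell by 0.16.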
